A study of Sus scrofa with 16 samples.

Results

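Heart DNA methylation was compared between Yorkshire pigs of high and low elevation, Yorkshire highland (YH) and Yorkshire lowland (YL), by methylated DNA immunoprecipitation sequencing (MeDIP-seq). These 2 groups held 8 of the 16 animals of the series, 4 in each group. All were castrated boars slaughtered at 6 months of age. YH pigs were conceived, born and raised at 3000 m and YL pigs at 100 m. The YH pigs descended from pigs moved to the highland some years before, so they represented recent arrivals rather than a highland breed. Feeding was kept the same within an elevation, and site and elevation cannot be told apart. The other 8 animals were Tibetan pigs raised at the same elevations (TH and TL, 4 in each group), which served here as a second pair of elevations. All peaks on chromosomes 1 to 18 of the YH and YL lists were taken, 263514 of 287224 YH peaks and 305654 of 332078 YL peaks.

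In mammals, a methyl group is added to cytosine mostly where a guanine follows, and this mark is copied when DNA is replicated. Methylation of promoters and other regulatory DNA is commonly linked with lower transcription. In MeDIP-seq an antibody against 5-methylcytosine pulls down methylated fragments, and a peak is a stretch where these fragments pile up. The heart works almost wholly on oxidative metabolism and carries the load of pumping blood through lungs whose vessels narrow in thin air, which is why heart tissue is of interest at high elevation. A peak gives the presence of methylated DNA over a stretch of bases and not the state of single cytosines. Whether the tissue was heart could not be checked from peaks, since they measure no transcripts.

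Depth was alike in the 2 groups. Uniquely mapped reads ranged from 15156793 to 18322376 per YH animal, with a mean of 16148879 ± 1475637 (SD, n = 4). They ranged from 16211179 to 18480183 per YL animal, with a mean of 17071031 ± 1008851 (SD, n = 4). Relative to the uniquely mapped reads of the group, there were 4079 YH and 4476 YL peaks per M reads. The share of bases of quality 20 or more was lower in each of the 4 YH libraries than in each of the 4 YL libraries. When all 16 libraries were ordered by this share, the widest gap left 6 libraries below it, 4 YH and 2 TL. The other 10 libraries were above it, and the part of this order in the results was not tested.

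No position of either list lay under more than 4 peaks, and each list was read as the joined peaks of 4 unnamed animals. Fold enrichment, the caller's ratio of tags in a peak to the number expected there, bore on this reading. In each list 4 evenly spaced series stood out among the fold enrichments, a check chosen after the data were seen, and 25.2% of YH and 24.8% of YL peaks could be placed on a single series. The number of series was set to 4, the number of animals. A further candidate held 1580.5 peaks above the local level in YH, against at least 10380 for each of the 4, and 3801 in YL, against at least 7694.5, so the number was less clear in YL. The steps of these series were 0.751, 0.593 and 0.689 in YH, with a further series that lay just under the first. The steps were 0.624, 0.645, 0.612 and 0.913 in YL. Among neighbouring YH peaks that could both be placed, 1.01% of overlapping pairs (193 of 19152) lay on the same series, against 24.5% of pairs that did not overlap. In YL the shares were 1.57% (324 of 20683 pairs) and 26.6%. Overlapping peaks that could be placed thus nearly always lay on different series. In YL, between 11640 and 25283 peaks could be placed on a single series, with the fewest on the series of step 0.913.

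Most methylated regions were shared by the highland and lowland Yorkshire pigs, and the peaks without a partner had fewer tags. Of the YH peaks, 85.4% overlapped a YL peak by at least 1 bp (224992 peaks, 95% Wilson confidence interval 85.2–85.5%). Of the YL peaks, 78.8% overlapped a YH peak (240745 peaks, 78.6–78.9%). These intervals cover counting error only, and the spread between animals is unknown because no peak carries an animal's name. This left 38522 YH peaks and 64909 YL peaks without a partner, so 37.2% of the peaks without a partner were highland peaks. With the same number of peaks taken from each list, the strongest by tags, this highland share was 51.1%, on the other side of an even split. The YH peaks covered 172 Mb and the YL peaks 201 Mb. Of these bases, 127 Mb lay under both lists, 73.6% of the YH and 62.9% of the YL bases.

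A peak without a partner had fewer tags (reads assigned to the peak) and was shorter, while its fold enrichment was near that of shared peaks. The median YH peak without a partner had 20 tags, against 31 tags for YH peaks with one. In YL the medians were 22 and 32 tags. The median length was 812 bp without and 1072 bp with a partner in YH. It was 852 bp without and 1100 bp with a partner in YL. The median fold enrichment was 7.33 without and 7.28 with a partner in YH, and 7.32 and 7.57 in YL. With peaks divided by the quartiles of their tags, from the lowest to the highest class, the share of YH peaks with a YL partner rose from 72.6% through 86.4% and 90.8% to 93.8%. The share of YL peaks with a YH partner rose from 64.0% through 79.7% and 84.6% to 87.9%.

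The sharing varied little along the genome. Among chromosomes, the share of YH peaks with a YL partner ran from 82.6% on chromosome 13 to 88.3% on chromosome 18. The same 2 chromosomes were the extremes for YL peaks, at 75.8% and 81.5%. YL had more peaks than YH on each of the 18 chromosomes, by a ratio from 1.13 on chromosome 10 to 1.17 on chromosome 15.

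To find places where the groups differed in more animals than 1, peaks over base 250 of each 500 bp window were counted. Of 493258 windows with at least 1 Yorkshire peak, 344082 had a YH peak, 402529 a YL peak and 253353 both. The number of peaks was equal in 23.2% of these windows and differed by 1 in 58.9%. YH had more peaks in 149347 windows (30.3%) and YL in 229511 (46.5%). Windows with peaks in all animals of a group seldom lacked peaks in the other. Where YH had 4 peaks, YL also had 4 in 58.0% of windows and 0 in 0.704%. Where YL had 4 peaks, YH had 4 in 53.1% and 0 in 2.02%.

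**Figure D1:**
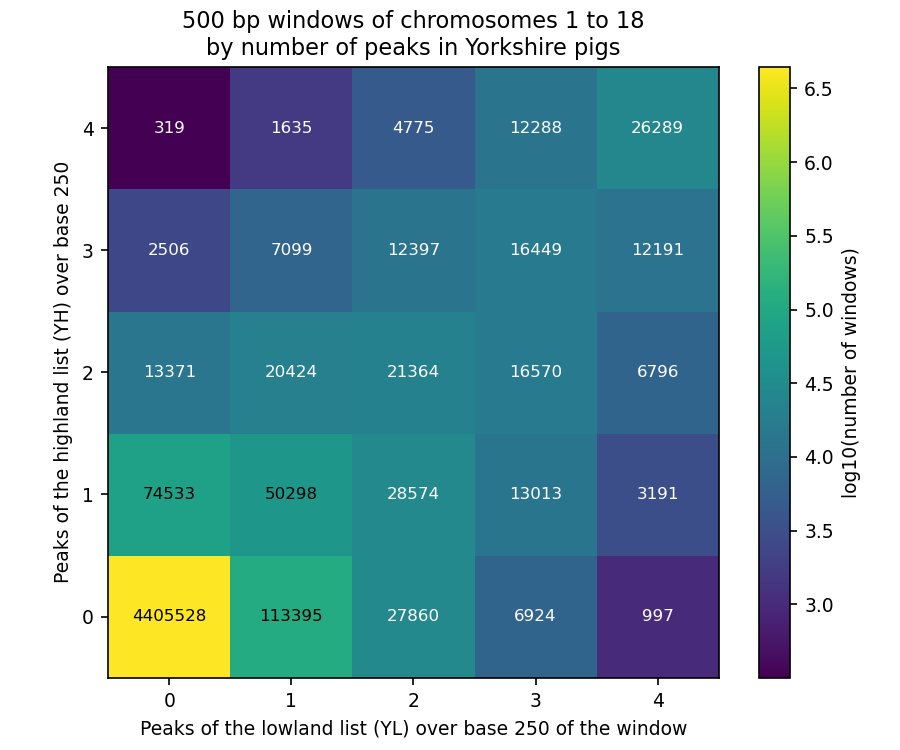
Number of 500 bp windows by the number of YL peaks (horizontal axis, 0 to 4) and YH peaks (vertical axis, 0 to 4) over base 250, with colour on a log10 scale. In the corners, 26289 windows had 4 peaks in both groups, 319 had 4 YH and 0 YL peaks, and 997 had 4 YL and 0 YH peaks.

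Complete separation, 4 peaks against 0, was found at 1316 windows, 0.267% of those tested. In 319 windows (0.0647%) the peaks were highland and in 997 (0.202%) they were lowland, 3.13 times as many. The highland share of these windows was 24.2% (95% Wilson confidence interval 22.0–26.6%, although adjoining windows share peaks). With the same number of peaks in each list it was 35.8%. No other split of 4 and 4 animals has a lower p (two-sided Fisher's exact test, p = 0.0286). After Benjamini-Hochberg adjustment over all windows with a peak, adjusted p = 1 (exact test), and 0 windows passed, against 1316 at an unadjusted p under 0.05. Just outside this limit, 1635 windows had 4 YH peaks and 1 YL peak, and 2506 had 3 YH peaks and 0 YL peaks. In the other direction, 3191 windows had 4 YL peaks and 1 YH peak, and 6924 had 3 YL peaks and 0 YH peaks. In the Tibetan pigs, 4 against 0 was found at 984 of 456176 windows (0.216%), 473 highland (0.104%) and 511 lowland (0.112%).

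Lowland windows outnumbered highland windows on each of the 18 chromosomes, by margins that varied widely. Per 1000 windows with a peak, the highland windows ran from 0.198 on chromosome 4 to 1.28 on chromosome 12. The lowland windows ran from 1.31 on chromosome 2 to 2.66 on chromosome 13. Chromosome 4 had 6 highland and 71 lowland windows, a highland share of 7.79% (95% Wilson confidence interval 3.62–16%). Chromosome 7 was similar, with 9 highland and 76 lowland windows (10.6%). Chromosome 12 was nearest to an even split, with 26 and 33 windows (44.1%, 32.2–56.7%). No test between chromosomes was made.

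**Figure D2:**
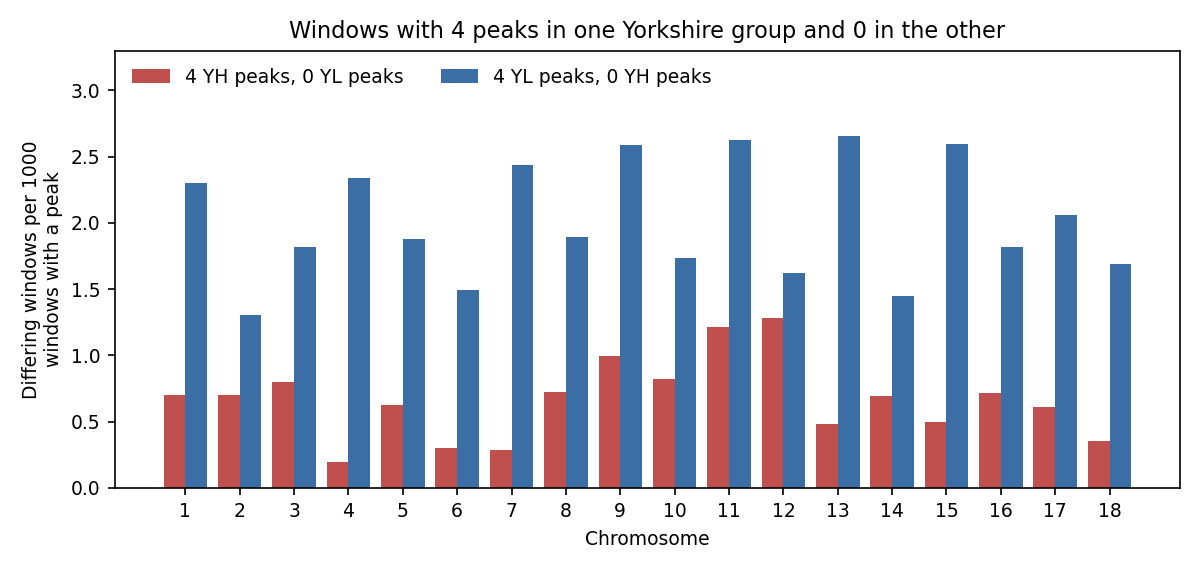
Windows with 4 peaks in a Yorkshire group and 0 in the other, per 1000 windows with a Yorkshire peak (vertical axis), on chromosomes 1 to 18 (horizontal axis), with highland windows in red and lowland windows in blue. The blue bar is above the red bar on each of the 18 chromosomes, and the bars are closest in height on chromosome 12.

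Differing windows were short and scattered. Joined with their neighbours they formed 230 highland and 668 lowland regions. Of these, 167 highland (72.6%) and 433 lowland regions (64.8%) were a single window. Highland regions of 2, 3, 4 and 5 windows numbered 45, 11, 6 and 1. Lowland regions of 2, 3, 4 and 5 windows numbered 173, 45, 9 and 4, and 2, 1 and 1 regions had 6, 7 and 8 windows. The longest region was 2500 bp in YH and 4000 bp in YL. In bins of 1 Mb, 707 of 2457 bins held a region and 69 held both kinds, with at most 3 highland or 4 lowland regions in a bin. The median distance to the next region of the same kind was 5550 kb in YH and 2170 kb in YL.

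Many differing regions lay beside or partly under a peak of the other group. A peak of the other group overlapped the region itself, away from base 250 of its windows, at 104 highland (45.2%) and 210 lowland regions (31.4%). Within 2000 bp a peak of the other group was found at 153 highland (66.5%) and 358 lowland regions (53.6%). The remaining 77 highland (33.5%, 95% Wilson confidence interval 27.7–39.8%) and 310 lowland regions (46.4%, 42.7–50.2%) had none within 2000 bp. The summits of the peaks were divided likewise, in part by definition, since windows with a peak of the other group over base 250 were left out of regions. All 4 summits lay inside the region at 60 (77.9%) of the 77 isolated highland regions and at 262 (84.5%) of the 310 isolated lowland regions. At regions with a peak of the other group within 2000 bp, this was so at 32 highland (20.9%) and 99 lowland regions (27.7%).

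**Figure D3:**
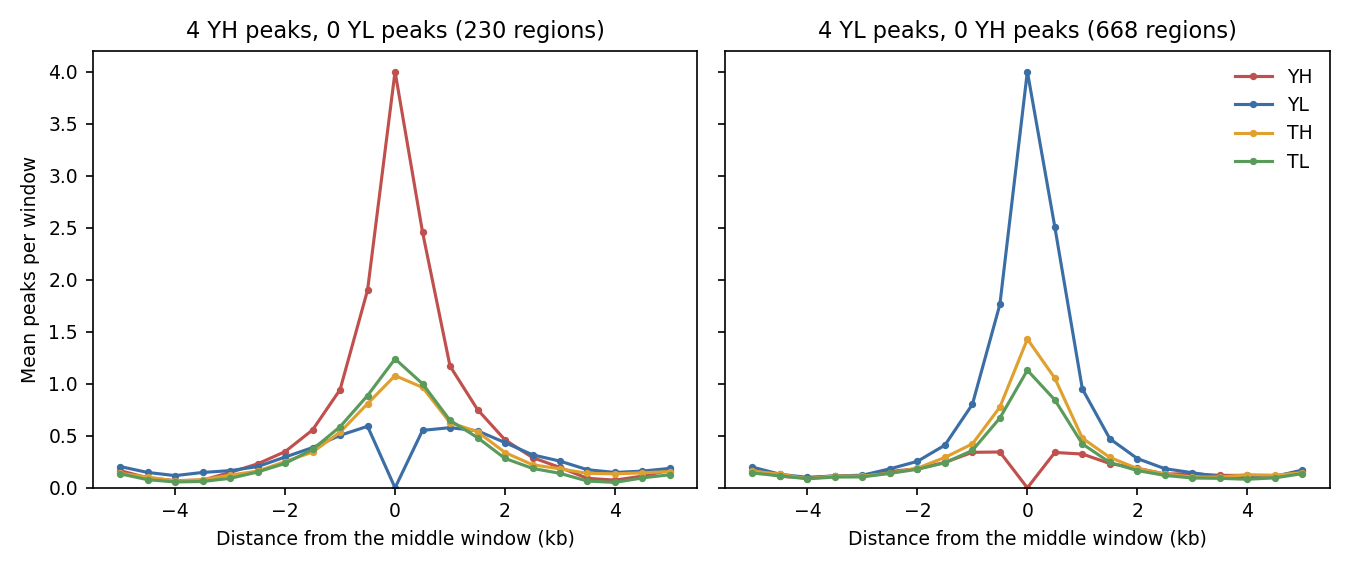
Mean number of peaks per 500 bp window (vertical axis) against the distance from the middle window of a region (horizontal axis, kb), for the 230 highland regions (left) and the 668 lowland regions (right), with a line for each of the YH, YL, TH and TL lists. The number of 4 against 0 at distance 0 was set by how regions were chosen. At 500 bp to the right, YL had 0.552 peaks beside highland regions and YH had 0.340 beside lowland regions, and both Tibetan lists peaked at distance 0.

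The peaks at isolated regions had few tags. Their median was 25 tags at both kinds of isolated region, counted over 308 YH and 1240 YL peaks. At regions within 2000 bp of a peak of the other group the median peak had 44 tags in YH and 39 in YL. Median lengths at isolated regions were 966 bp in YH and 961 bp in YL, against 1483 and 1341 bp at the regions near a peak of the other group. The median fold enrichment was 7.22 against 6.43 in YH and 7.74 against 6.92 in YL. Over all differing windows, the median YH peak had 35 tags and 6.71-fold enrichment, against 44 tags and 7.54-fold at windows with 4 peaks in both groups. The median YL peak had 32 tags and 7.28-fold enrichment, against 46 tags and 8.04-fold. Peaks at differing windows thus had fewer tags and lower fold enrichment than those at windows where all 8 animals had one. They had more tags than the whole list, whose medians were 29 in YH and 30 in YL. Their fold enrichment was below that of the whole list, 7.29 in YH and 7.49 in YL. At windows with 4 peaks against 1 to 3, the medians were 39 tags and 7.02-fold in YH and 36 tags and 7.69-fold in YL. The median length was 1230 bp at differing YH windows, against 1329 bp where both groups had 4 peaks, a ratio of 0.926, which was 1.01 by means.

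Methylation peaks of the pig genome are denser toward chromosome ends, and the highland windows lay there more often than the lowland windows. In the outer 10% at each end were 118 of 319 highland windows (37.0%, 95% Wilson confidence interval 31.9–42.4%) and 286 of 997 lowland windows (28.7%, 26.0–31.6%). Of all windows with a peak, 29.4% were there. Counted as joined regions, the shares were 34.8% in YH and 24.4% in YL, and the difference was not tested. By length, 34.7% of highland regions of 1 window, 24.4% of those of 2 windows and 11 of 18 of at least 3 windows (38.6–79.7%) were at the ends. Of lowland regions, 20.8%, 24.3% and 31 of 62 (37.9–62.1%) were there. Runs of at least 3 windows with 4 peaks in both groups were likewise at the ends in 46.3% of cases (1536 of 3315), against 22.2% of single windows of that kind.

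Long regions were made of broad peaks with many tags but low fold enrichment. For each region the median tags and the mean fold enrichment of its peaks were taken, and medians over regions are given. From single windows to regions of at least 4 windows, tags went from 32.5 to 93.5 in YH and from 27 to 125 in YL. Over the same range, fold enrichment went from 7.15 to 4.08 in YH and from 8.08 to 4.69 in YL. The number of windows in a region follows from the length of its peaks, so these medians are a description.

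The 10 longest regions of each group were examined one by one, with ties in length settled by the higher mean fold enrichment. This took 3 of the 11 highland regions of 3 windows and 2 of the 9 lowland regions of 4 windows. Of these 20, 16 lay in the outer 10% at either end of their chromosome, and the mean fold enrichment was below the median of its list in all 20. There was no peak of the other group within 2000 bp at 15 of them, 6 highland and 9 lowland. Without the choice among ties, this was so at 10 of all 18 highland regions of at least 3 windows and at 13 of all 17 lowland regions of at least 4 windows. Of the same regions, 11 of 18 and 10 of 17 lay in the outer 10%, a lower share than among the 20. Runs with 4 peaks in both groups were there in 46.3% of cases at 3 or more windows. At 4 or more windows they were there in 53.0% (662 of 1248). The peaks of the 20 regions had 34 to 195 tags in YH and 58 to 298 tags in YL. Positions are those of Sscrofa10.2, and no annotation of that build was used, so whether they lie in genes was not analysed here.

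The longest highland region, chr9:116494501-116497000, had 5 windows. Its 4 YH peaks had 112, 125, 107 and 94 tags, fold enrichments of 4.12, 4.30, 4.26 and 3.87 and lengths of 2820, 2931, 2724 and 2382 bp. The peaks resembled each other closely in all 3 values. The nearest YL peak was 10536 bp away, and neither Tibetan group had a peak over it. Another isolated highland region, chr9:145325001-145327000, lay 17709 bp from the nearest YL peak. At chr14:151097001-151099000 the 4 YH peaks had 64, 75, 78 and 72 tags, with 3 TH peaks and 0 TL peaks over it. The Tibetan order was the other way at chr9:10980501-10982500, with 1 TH peak and 2 or 3 TL peaks over each window. It was also the other way at chr14:3961501-3963000, with 0 or 1 TH peaks and 2 or 3 TL peaks.

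The longest lowland region, chr3:39126501-39130500, had 8 windows. Its 4 YL peaks had 206, 229, 145 and 253 tags and were 5155, 5222, 4471 and 6213 bp long. Their fold enrichments of 2.90, 3.65, 4.81 and 3.63 were all below the median of the list. The nearest YH peak was 9463 bp away, and 1 TH and 1 TL peak lay over the region. At chr8:2853001-2856500, of 7 windows, the YL peaks had 298, 158, 275 and 241 tags and the nearest YH peak was 15270 bp away. There, 2 TH peaks and 3 or 4 TL peaks covered each window. The Tibetan order was the other way at chr1:309035501-309038000, with 2 TH peaks and 1 TL peak over each window. The regions chr15:153482001-153485000 and chr11:75177501-75180500 had 6 windows each. Their YL peaks had 155, 138, 129 and 81 tags in the first and 139, 202, 99 and 146 tags in the second.

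**Figure D4:**
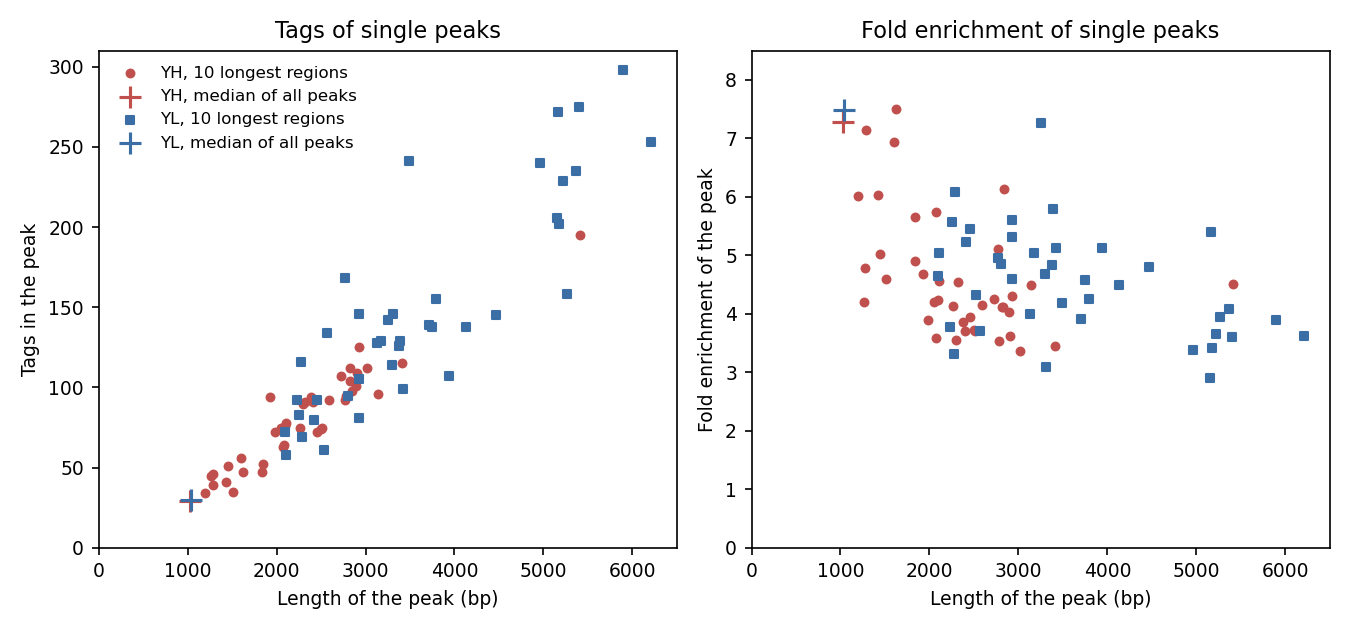
Tags (left, vertical axis) and fold enrichment (right, vertical axis) of single peaks at the 10 longest highland regions (YH peaks, red circles) and the 10 longest lowland regions (YL peaks, blue squares) against peak length in bp, with crosses at the medians of each whole list. The peaks have 34 to 298 tags, above the median of 29 or 30, and nearly all lie below the median fold enrichment of 7.29 in YH and 7.49 in YL.

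The Tibetan pigs gave a contrast of the same elevations in other animals, but there the lowland group (TL) descended from moved pigs and the highland group (TH) did not. Elevation and descent from moved pigs therefore ran together in the Yorkshire pair and against each other in the Tibetan pair. At the 319 highland windows the mean number of peaks was 1.10 ± 1.05 (SD over windows) in TH and 1.23 ± 1.11 in TL. At the 997 lowland windows it was 1.44 ± 1.08 in TH and 1.13 ± 1.06 in TL. At highland windows, TL had more peaks than TH in 125 (39.2%) and TH more than TL in 86 (27.0%). At lowland windows, TH had more in 429 (43.0%) and TL in 214 (21.5%). Over all windows with a Yorkshire peak, TH had more in 28.8% and TL in 22.3%. Among windows where TH and TL differed, TH had more in 40.8% of highland windows (95% Wilson confidence interval 34.4–47.5%) and 66.7% of lowland windows (63.0–70.3%), against 56.4% of all windows with a Yorkshire peak. The share also varied among windows where the Yorkshire groups did not differ, a comparison added after the data were seen. It was 39.6% (38.8–40.4%) at windows with 4 YH and 4 YL peaks and 56.6% (55.8–57.5%) at windows with 2 of each. The share at highland windows lay between these 2 shares, while the share at lowland windows was above both. Windows with 1 or 3 peaks of each Yorkshire group were not examined. The windows with 4 of each also held more Tibetan peaks, with means of 3.12 in TH and 3.23 in TL. The share at windows with 2 of each was above the interval at highland windows. At windows with at least 3 peaks against 0 the share was 47.5% (45.1–49.9%) for highland and 65.8% (64.4–67.1%) for lowland windows. Counted as regions, TL had more at 97 and TH at 63 of 230 highland regions, and TH had more at 304 and TL at 150 of 668 lowland regions. Neighbouring windows share peaks, and 2 TL libraries were on the same side of the quality gap as the 4 YH libraries. The part of that in this order was not tested.

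**Figure D5:**
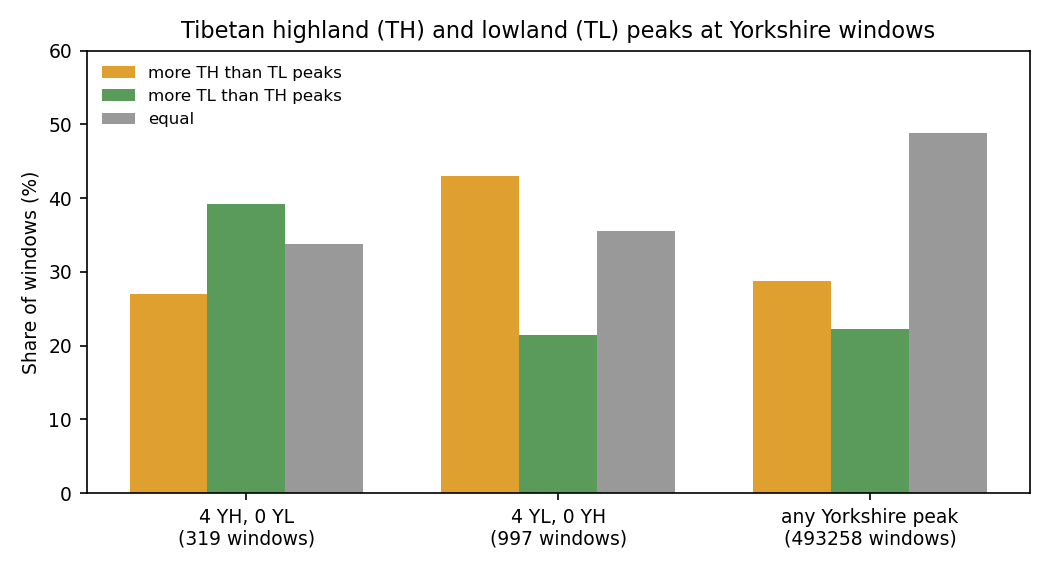
Share of windows (vertical axis, %) with more TH than TL peaks (orange), more TL than TH peaks (green) or equal numbers (grey), for the 319 highland windows, the 997 lowland windows and all 493258 windows with a Yorkshire peak. TL is ahead at highland windows (39.2% against 27.0%), as it also was at windows with 4 YH and 4 YL peaks (32.9% against 21.6%), and TH is ahead at lowland windows (43.0% against 21.5%).

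Gene names were taken from the part used here of the study's list of differing windows, which named 330 windows of 164 genes from its comparisons between breeds. Those comparisons included the YH or YL animals, so the windows were not chosen independently of them. The windows named for YH against YL were not used here. The 330 windows lay only on chromosomes 1 and 10 to 14, whereas the shares of all windows given for comparison cover chromosomes 1 to 18. Of the 330 windows, 149 had no Yorkshire peak. Of the 181 with a peak, 0 had 4 against 0, too few windows to read against the 0.267% of all windows with a peak. YL had more peaks in 87 of the 181 (48.1%) and YH in 47 (26.0%), near the shares of all windows with a peak (46.5% and 30.3%).

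A difference of 3 peaks was found at 7 of these windows, 3.87% of the 181 with a Yorkshire peak, near the 3.16% of all windows with a peak that differed by 3 or 4. Each of the 7, of which 2 adjoin, had more YL peaks, as did 71.4% of all windows that differed by 3 or 4 (11112, against 4460 with more YH peaks), and none reached an exact p under 0.05 (two-sided Fisher's exact test, p = 0.143 for each). Near ITGB1, the beta 1 integrin through which cells hold on to their matrix, 2 adjoining windows listed just downstream of the gene (chr10:61447001-61447500 and chr10:61447501-61448000) each had 3 YL peaks and 0 YH peaks. The promoter window of NME2, a nucleoside diphosphate kinase (chr12:27505001-27505500), had 3 YL peaks and 0 YH peaks. The promoter window of FBXL4, an F-box protein needed to maintain mitochondrial DNA (chr1:74474001-74474500), had 4 YL peaks and 1 YH peak. The same numbers were found downstream of DAPK2, a calmodulin-regulated kinase (chr1:118992001-118992500), and in an intron window of SMYD3, a lysine methyltransferase (chr10:21131501-21132000). An intron window listed for LEP, the hormone leptin (chr1:293760501-293761000), had 3 YL peaks and 0 YH peaks, while another (chr1:294249001-294249500) had 2 YH peaks and 0 YL peaks. Of the LEP windows, YL had more peaks at 3 and YH at 2, and 5 had no Yorkshire peak. The 10 windows listed for LEP spread over 540.5 kb and the 18 for SMYD3 over 619 kb, and these assignments were not checked here.

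The study also named genes for YH against YL, which it chose on these samples, and the 35 used here are only those it named in functional terms or among its key genes. Of these, 6 had a window on chromosomes 1 and 10 to 14, the only ones covered here. A gene without a window here may have one on another chromosome. There were 17 windows in all. YL had more peaks at 6 of these windows, YH at 3, and 8 were equal, 7 of them without a peak. Among all windows with a peak YL had more in 46.5% and YH in 30.3%, so the lean to YL at these few windows was not set apart. The windows belonged to LEP, ITGB1, APP, EPHX2, ERG and FGFR2. The promoter window of EPHX2, the soluble epoxide hydrolase, had 0 Yorkshire peaks, which speaks only of that window. By bisulfite sequencing of an EPHX2 intron in other pigs, the paper found most sites methylated in YH and YL, with no significant difference. The intron window of ERG, a transcription factor of endothelial cells, had 1 peak in each group. The intron window of FGFR2, a fibroblast growth factor receptor, had 1 YH peak and 0 YL peaks.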

How the data were processed

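Heart DNA of 4 pigs per group was analysed by MeDIP-seq. The authors cleaned the reads with FASTX 0.0.13, aligned them to Sscrofa10.2 with Bowtie 0.12.8 and ran MACS 1.4 to call peaks. The deposited lists, 1 per group, give the position, length and summit of each peak. Tags are deposited as raw counts of reads in a peak, and the deposited fold enrichment is the authors' ratio of observed to expected tags. No column belonged to samples outside these groups (0 such columns). Depth per animal was the number of uniquely mapped reads in the study's read summary.

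Peaks on chromosomes 1 to 18 were used, with ends from the joint start and end field. Overlap was at least 1 bp. Peaks over base 250 of each 500 bp window were counted and read as animals, and windows with 4 against 0 were joined into regions. Fisher's exact test (two-sided, 4 animals against 4) was adjusted by Benjamini-Hochberg over all windows with a peak. Wilson intervals (95%) cover counting error only. The regions described singly were the 10 longest per group and those where the Tibetan pigs also had 4 against 0. The windows, lists and regions were chosen with earlier results of these data known. The counting was tested on simulated data. Sequences and genes of regions were not analysed here, because no genome or annotation of Sscrofa10.2 was used. SciPy 1.17.1, pandas 2.3.3, NumPy 2.4.6 and Matplotlib 3.10.9 were run under Python 3.11.15.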

Additional observations from a re-analysis of the deposited data

Results flagged for a closer look

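At 2 regions both breeds had peaks in all animals of a group and none in the other, in opposite directions between the breeds. The region chr6:126395001-126396000 had 2 windows with 4 YL peaks and 0 YH peaks, and its second window had 4 TH peaks and 0 TL peaks. The YL peaks there had 31, 19, 26 and 22 tags and fold enrichments of 10.64, 10.96, 10.90 and 8.74. The region chr16:13248001-13248500 had 1 window with 4 YL and 4 TH peaks and 0 YH and 0 TL peaks. Its YL peaks had 22, 23, 12 and 18 tags and fold enrichments of 13.54, 13.10, 10.96 and 10.40. Neither was found with peaks of at least 20 tags, and the second was also not found with a common minimum of tags for the depth of each list or with the same number of peaks in each list. In all, 2 of 997 lowland windows (0.201%) had 4 TH and 0 TL peaks, against 443 of all 493258 windows with a Yorkshire peak (0.0898%), too few windows to set them apart. The difference between the breeds was not tested.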

How the results depend on the processing

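No paired analysis was possible because the peaks carry no animal names, and for the same reason no animal could be left out in turn. Allowing at least 3 peaks against 0 gave 10746 windows and 7023 regions. The highland share of windows was 27.1% with a common minimum of tags for the depth of each list and 35.8% with the same number of peaks in each list. Restricted to regions with no peak of the other group within 2000 bp, a setting chosen after seeing the data, 639 windows in 387 regions remained, 19.6% of the windows highland. The shares of YH and YL peaks with a partner were 86.9% and 78.0% with at least 20 tags, 84.8% and 79.7% with the common minimum, 81.3% and 82.1% with equal numbers, 76.0% and 67.2% with overlapping peaks merged, and 82.6% and 75.7% with an overlap of 50% of both peaks. In the same order, the highland share of peaks without a partner was 33.4%, 40.1%, 51.1%, 39.3% and 38.1%, so that its direction turned with equal numbers. In the outer 5% at each end were 21.3% of highland and 17.0% of lowland windows, and of lowland regions 24.4% were in the outer 10%. By means, the YH length ratio was 1.01. A peak of the other group lay within 500 and 5000 bp at 55.7% and 80.0% of highland regions, and within 500, 1000 and 5000 bp at 41.8%, 46.6% and 68.7% of lowland regions. The share of highland windows with more TH peaks, where TH and TL differed, was also taken in settings added after seeing the data. It was 34.3% with equal numbers in all 4 lists, 38.6% at isolated regions and 37.5% with at least 20 tags. With at least 3 peaks against 0 it was 47.5%, near the upper bound of the interval found at 4 against 0. Apart from the restriction to isolated regions, the fewest of the 230 highland regions were found again when any overlap with a window counted (134), and the fewest of the 668 lowland regions with at least 20 tags (392). Moving the windows by 250 bp found 141 and 479. Single windows cannot pass the adjusted test at these numbers.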
